A study of Myotis pilosus with 4 samples.

Results

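The mature arms of miR-9, miR-129, miR-153 and miR-551 were followed in bat brain and white adipose tissue (WAT), each taken in hibernation and in the active state. These are 6 of the 188 listed mature miRNAs that had reads in brain, namely miR-9-3p, miR-129-3p, miR-129-5p, miR-153-3p, miR-153-5p and miR-551-3p. They were chosen by name, with earlier results of these data known. Each was looked up by its listed sequence among the distinct small RNA sequences (tags) of each library. All 6 were found.

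Small RNA was sequenced from 4 pools of adult *Myotis ricketti*, which the sample labels call *Myotis pilosus*, and each pool mixed equal amounts of RNA from 3 wild bats. The hibernating bats gave the whole brain library HB and the intra-abdominal WAT library HA. The active bats, which the labels call aroused, gave the corresponding libraries AB and AA. Active bats were netted in October and hibernating bats were collected in March, so state and season cannot be told apart. With 1 library per tissue and state there are no replicates, each difference is one between 2 libraries, and no p-value is given. The brain libraries held 12159756 (HB) and 10007650 (AB) clean reads and the WAT libraries 11542470 (HA) and 11437337 (AA).

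A miRNA hairpin is cut into a 5p and a 3p arm, and the arm that is loaded into an Argonaute protein recognises its targets mainly through the seed, bases 2 to 8 from its 5′ end. An arm whose 5′ end moves by a single base therefore has another seed, whereas a change at the 3′ end leaves the seed as it was. miR-9 is known for its part in neurogenesis, and both of its arms act on the REST repressor complex that silences neuronal genes. miR-129 is enriched in brain and is known to repress a voltage-gated potassium channel and other genes of neuronal excitability, and miR-153 is a brain miRNA that targets α-synuclein.

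The listed sequences are shown here because the arms, starts and lengths below are counted from them. They are written 5′ to 3′ as DNA, with the seed in capitals.
miR-9-3p: tAAAGCTAgataaccgaaagta
miR-129-3p: aAGCCCTTaccccaaaaagcat
miR-129-5p: cTTTTTGCggtctgggcttg
miR-153-3p: tTGCATAGtcacaaaagtgatca
miR-153-5p: gTCATTTTtgtggcgttgcag
miR-551-3p: gCGACCCAtacttggtttcag
No other listed miRNA had the seed of any of the 6, so none of them belonged to a larger seed family within the list.

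Both arms of miR-129 were found in all 4 libraries, with the 3p arm far above the 5p arm. In brain, 34053 reads of miR-129-3p were found in HB and 14360 in AB, or 2800.5 and 1435 reads for each 1000000 clean reads (RPM). In WAT it had 1104 in HA and 2060 in AA, or 95.6 and 180.1 RPM. It ranked 11th of the 182 listed miRNAs found in HB and 13th of 175 in AB. miR-129-5p had 376, 594, 89 and 124 reads in the same order, or 30.9, 59.4, 7.71 and 10.8 RPM. The 3p arm was thus highest in hibernating brain, and the 5p arm in active brain.

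For miR-9-3p, 2070 reads were found in HB and 2918 in AB, against 3 in HA and 11 in AA, or 170.2 and 291.6 RPM in brain against 0.260 and 0.962 in WAT. It was a brain miRNA in these libraries, with its highest level in active brain.

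By their listed sequences, the other 3 arms were found in brain alone. miR-153-3p was counted 98 times in HB and 92 in AB (8.06 and 9.19 RPM), miR-153-5p had 164 and 107 (13.5 and 10.7 RPM), and miR-551-3p had 126 and 63 (10.4 and 6.30 RPM). Neither WAT library held a read of the 3 listed sequences, and the limit left by a count of 0 is 3 reads, or 0.260 RPM in HA and 0.262 RPM in AA. By the listed sequences, the order of the 6 arms by RPM began with miR-129-3p, miR-9-3p and miR-129-5p in both brain libraries. The counting intervals of the 3 remaining arms overlapped between neighbours. In HB, miR-153-5p lay between 11.5 and 15.7 RPM, miR-551-3p between 8.63 and 12.3 and miR-153-3p between 6.54 and 9.82. In AB, miR-153-5p lay between 8.76 and 12.9 RPM, miR-153-3p between 7.41 and 11.3 and miR-551-3p between 4.84 and 8.05. These exact 95% intervals cover counting error only, because PCR can copy a molecule many times and the spread between bats was lost by pooling. The order also depended on which tags were counted. With every tag that began with the first 18 nt, miR-551-3p had 96.4 RPM in HB, miR-153-3p 73.4 and miR-153-5p 21.2.

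**Figure D1:**
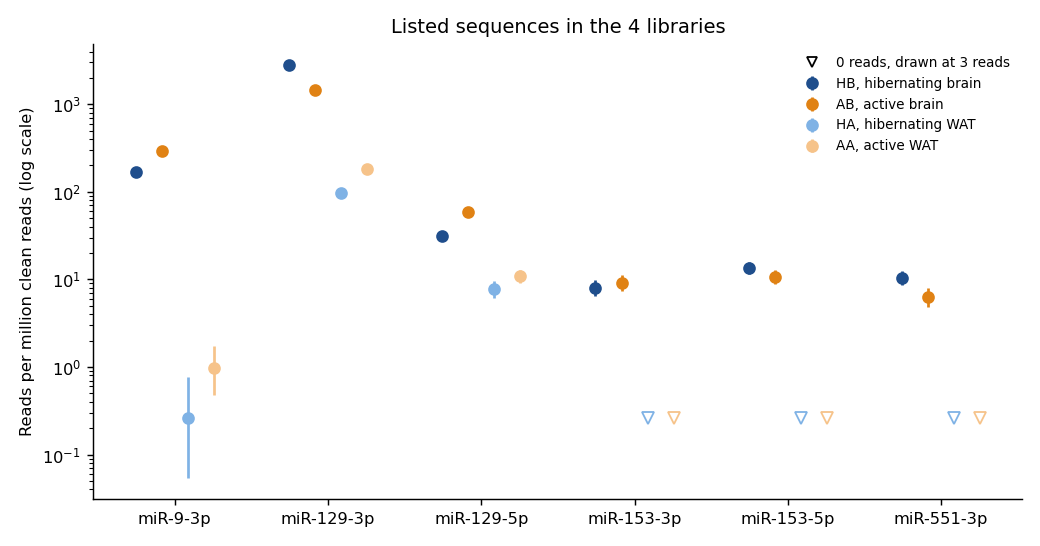
Level of the 6 listed sequences in each library, as RPM on a log axis. Circles are single libraries, bars are exact 95% counting intervals, and open triangles mark 0 reads drawn at 3 reads; both arms of miR-129 are present in WAT, whereas miR-153 and miR-551-3p have 0 reads there.

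The first comparison was between tissues. Ratios are given as log2 after TMM scaling (edgeR) on all listed miRNAs. Of the 6 arms, 6 were higher in AB than in AA by a log2 ratio of 1 or more, against a background of 38.4% of the 159 miRNAs with 10 or more reads in the pair. Likewise 6 of 6 were higher in HB than in HA, against a background of 40.9% of 159. The median ratio of the 6 was 4.77 for AB over AA and 5.04 for HB over HA, with the 3 arms without WAT reads set at their bounds, whereas the median of all miRNAs tested was -0.01 and 0.20. The arms were chosen as neuronal and with earlier results of these data known, so this direction is a description of them. The study had already reported both arms of miR-153 and miR-551-3p as specific to brain in these libraries.

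The size of the tissue difference ranged widely among the 6 arms. Among the 3 arms with WAT reads, miR-9-3p had the largest ratios, 8.15 for AB over AA (95% counting interval 7.31 to 9.16) and 9.26 for HB over HA (7.71 to 11.54). miR-129-3p had 2.90 (2.83 to 2.97) and 4.78 (4.69 to 4.86). miR-129-5p had the smallest, 2.36 (2.08 to 2.65) and 1.91 (1.57 to 2.26). In the active bats the arms without WAT reads were at least 38.2-fold higher in brain for miR-153-5p, at least 32.9-fold for miR-153-3p and at least 22.5-fold for miR-551-3p. In the hibernating bats the bounds were at least 48.6-fold, 29.0-fold and 37.3-fold. These bounds set the 0 count at 3 reads in the WAT library. In bulk tissue, fewer cells of a type and less RNA per cell cannot be told apart.

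The arms were set beside 11 other nervous system miRNAs, of which all 11 had a log2 ratio of 1 or more towards brain in both states. The background was 38.4% of 159 miRNAs for AB over AA and 40.9% of 159 for HB over HA. This list was also chosen with earlier results of these data known, so its direction does not test the tissue labels. The most abundant of the 11 was miR-124a-3p, the leading neuronal miRNA, with 415697 reads in HB and 449967 in AB, against 286 in HA and 292 in AA. Its WAT level was 0.0568% of the brain level in the active and 0.0725% in the hibernating bats. miR-219-3p, known from myelin-forming oligodendrocytes, had 39847, 49302, 12 and 18 reads, and miR-383-5p had 1690, 894, 2 and 3. Together the 11 reached 42771 RPM in HB and 57388 in AB, against 121.8 in HA and 63.7 in AA. miR-124-5p and miR-1298-5p were at 0 reads in both WAT libraries, like miR-153 and miR-551-3p.

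Against brain, miR-129 stood high in WAT among the nervous system miRNAs. In the active bats miR-129-5p in WAT was 18.3% of its brain level and miR-129-3p 12.6%, the first and the second of the 17 nervous system miRNAs compared. miR-218a-5p followed with 9.19%, from 23 reads in AA, then miR-218b-5p with 7.85% (7 reads) and miR-138-3p with 7.14% (4 reads). miR-7c-5p, a neuroendocrine miRNA, came 6th with 2.80%, from 325 reads. In the hibernating bats miR-129-5p was again first, with 24.9%, and miR-129-3p, with 3.42%, came behind miR-7c-5p (4.93%) and miR-218a-5p (3.51%). miR-9-3p stood at 0.330% and 0.153%, near miR-383-5p at 0.294% and 0.125%. The shares of miR-9-3p rest on 11 listed reads in AA and 3 in HA. Its log2 ratios by the listed sequence were 8.15 (AB over AA) and 9.26 (HB over HA). With every tag that began with its first 18 nt they were 8.91 and 8.58, and with every tag that contained its bases 2 to 17 they were 9.53 and 8.82. The order of the states therefore turned with the count rule. The WAT shares of both miR-129 arms thus exceeded that of miR-124a-3p in each state. The source of the WAT reads was not tested.

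**Figure D2:**
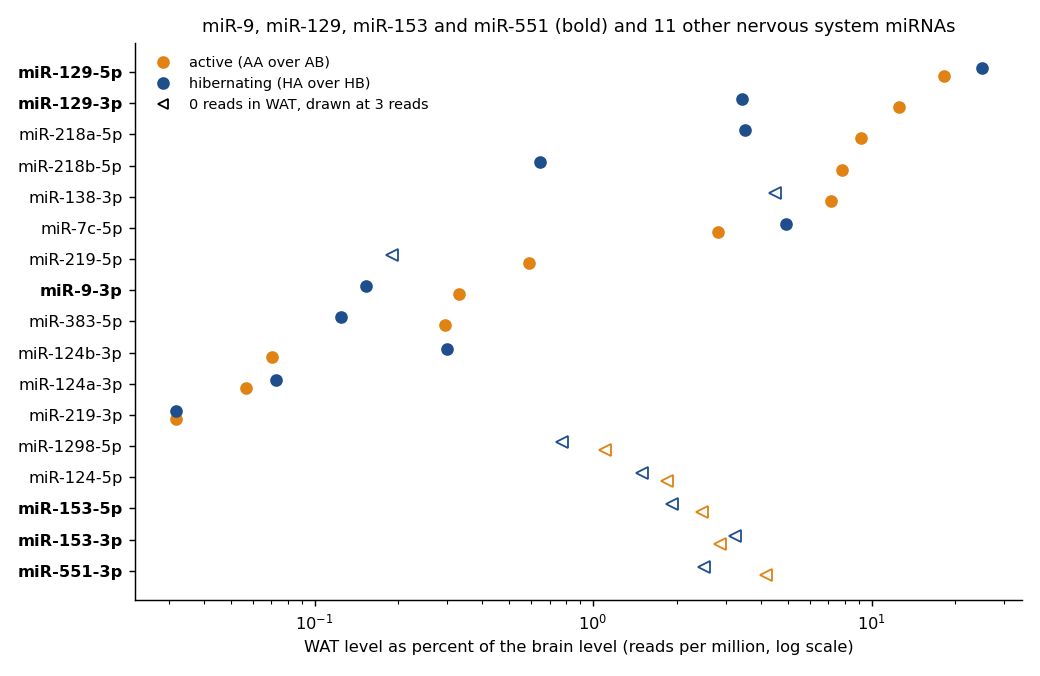
WAT level as percent of the brain level for the 6 arms (bold) and 11 other nervous system miRNAs, in RPM on a log axis, with 1 point per state and open triangles where WAT had 0 reads. miR-129-5p lies at 18.3% and 24.9%, whereas miR-124a-3p lies at 0.0568% and 0.0725%.

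The second comparison was between states in brain. Of the 6 arms, 2 were higher in HB by a log2 ratio of 1 or more, against a background of 22.9% of 153 miRNAs, and 0 were lower, against 17.6%. The 2 were miR-129-3p, at 1.25 (1.23 to 1.28) or 2.39-fold, and miR-551-3p, at 1.01 (0.56 to 1.47). With 6 arms, this count lies near the background. miR-129-5p was lower in HB, at -0.65 (-0.84 to -0.46), as was miR-9-3p at -0.49 (-0.57 to -0.40). Both arms of miR-153 lay between, at 0.63 (0.27 to 0.99) for miR-153-5p and at 0.10 (-0.33 to 0.53) for miR-153-3p.

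The direction of 5 arms held in each of 7 settings, namely 5 scalings of the listed counts and 2 wider count rules, whereas the size depended on them. Over these settings the ratio of miR-129-3p ranged from 0.96 to 1.39, that of miR-551-3p from 0.51 to 1.14, that of miR-153-5p from 0.30 to 0.76, that of miR-129-5p from -0.94 to -0.52 and that of miR-9-3p from -0.78 to -0.30. miR-153-3p ranged from -0.19 to 0.72. With scaling by total clean reads, or with every tag that began with the first 18 nt of a listed sequence, 0 of the 6 arms reached 1. The median of all 153 miRNAs was 0.01 with TMM and -0.28 with clean reads, and 35 were higher and 27 lower with TMM, 26 and 37 with clean reads, and 43 and 22 with TMM over the conserved miRNAs alone. Counted by the first 18 nt, 176 miRNAs passed the minimum, of which 21 were higher and 28 lower.

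**Figure D3:**
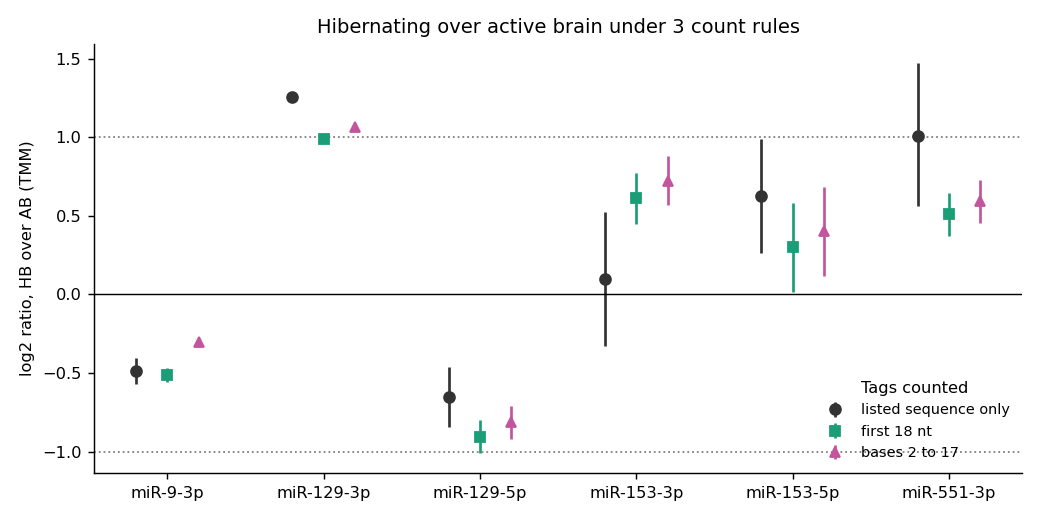
Log2 ratio of HB over AB, scaled by TMM, for the 6 arms under 3 rules for which tags count. Points are the ratio of 2 libraries, bars are exact 95% counting intervals and dotted lines mark 1 and -1; miR-129-3p lies near 1 under every rule, and miR-129-5p and miR-9-3p lie below 0 under every rule.

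Markers of other cell types also differed between the brain libraries, and within most lists the members differed in direction. The 4 blood miRNAs summed to 28.1 RPM in HB and 62.4 in AB, through miR-486-5p of red cells (log2 ratio -1.12) and miR-486-3p (-2.10), whereas miR-142-5p of white cells stood at 1.21. Of the 3 blood miRNAs with 10 or more reads, 1 was higher in HB by 1 or more and 2 were lower. The 2 epithelial miRNAs, led over all libraries by miR-200b-3p, summed to 10.2 and 30.3 RPM, and both were lower. The 3 muscle miRNAs summed to 1948 and 1605 RPM, through miR-1-3p (0.66), whereas miR-133-3p (-1.16) and miR-206-3p (-0.24) were below 0. The 6 stromal, vascular and adipose miRNAs, led by miR-199-3p, summed to 649.2 and 1268 RPM, with miR-378-3p at 120.0 and 462.0 RPM. Of these 6, 2 were higher in HB, namely miR-145-3p (1.66) and miR-193-3p (1.39), and 1 was lower, with a median of 0.23. Among the 11 other nervous system miRNAs, 2 were higher in HB by 1 or more and 0 lower, with a median of 0.60. Their sum was nevertheless lower in HB, at 42771 RPM against 57388 in AB. The most abundant, miR-124a-3p, stood at -0.11. miR-124b-3p (-0.67) and miR-219-3p (-0.30) were also below 0, and all the others were above 0. The part of these shifts in the ratios of the 6 arms was not tested.

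The third comparison was between states in WAT, where 3 of the 6 arms had 10 or more reads. Of these, 0 were higher in HA by 1 or more, against a background of 20.4% of 142 miRNAs, and 1 was lower, against 28.9%. The 1 was miR-9-3p, at -1.54 (-4.02 to 0.38), from 3 and 11 reads, and its interval spans 0. With every tag that contained bases 2 to 17 it had 32 and 29 reads and a ratio of 0.28, so its difference in WAT was not detectable at this depth. miR-129-3p was at -0.56 (-0.67 to -0.46) and miR-129-5p at -0.14 (-0.55 to 0.26). With TMM over the conserved miRNAs alone, these became 0.21 and 0.64, as the median of all 142 miRNAs moved from -0.29 to 0.49. The numbers higher and lower among the 142 were 29 and 41 with TMM, 51 and 19 with TMM over the conserved miRNAs, 33 and 31 with scaling by the summed listed miRNAs and 23 and 54 with clean reads, so the direction of the miR-129 arms in WAT rests on the settings. Of 7 settings, miR-129-3p was below 0 in 6, and miR-129-5p was below 0 in 2 and above 0 in 5.

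In WAT the stromal, vascular and adipose miRNAs summed to 14644 RPM in HA and 56054 in AA, the epithelial to 25.9 and 2.45, the muscle to 17409 and 18253, the blood to 253.2 and 267.5, and the 11 other nervous system miRNAs to 121.8 and 63.7. The members most abundant over the libraries were miR-199-3p, miR-200b-3p, miR-1-3p, miR-486-5p and miR-124a-3p, and miR-200a-3p was at 0 reads in AA. The nervous system sum was higher in HA through miR-7c-5p, at 85.2 RPM in HA and 28.4 in AA. Without it, a sum computed after the values had been seen, the other 10 reached 36.6 and 35.2 RPM. miR-124a-3p was at 24.8 and 25.5 RPM, and miR-124b-3p was higher in HA, at 9.62 and 4.37 RPM (log2 ratio 1.49). miR-218a-5p, at 0.953 and 2.01, had fewer RPM in HA, as miR-129-3p did. RPM counts all clean reads, and with that scaling the median log2 ratio of 142 miRNAs was -0.64 for HA over AA. With TMM the ratios were 0.31 for miR-124a-3p, -0.73 for miR-218a-5p and -0.56 for miR-129-3p. Of the 11 other nervous system miRNAs, 5 had 10 or more reads in WAT. Of these 5, 2 were higher in HA by 1 or more and 0 lower, with a median of 0.31. Of the 6 stromal, vascular and adipose miRNAs 3 were lower in HA by 1 or more and 0 higher, with a median of -1.02. The part of these markers in the ratios was not tested.

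The 2 arms of miR-129 moved apart between the brain libraries, which could be read within each library without any scaling. In brain there were 90.6 reads of the 3p arm per read of the 5p arm in HB and 24.2 in AB, whereas WAT had 12.4 in HA and 16.6 in AA. HB thus stood above the other 3 libraries. The log2 difference of this arm ratio was 1.91 for HB minus AB (95% exact conditional interval 1.71 to 2.10), or 3.75-fold, and it was 1.89 when tags sharing the first 18 nt were counted and 1.88 when tags with bases 2 to 17 were. In WAT, HA minus AA was -0.42, with an interval of -0.84 to 0.00 that just reached 0, and -0.79 (-1.02 to -0.56) with the first 18 nt. The arm ratio was therefore higher in hibernating than in active brain and, with the wider count, lower in hibernating than in active WAT.

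**Figure D4:**
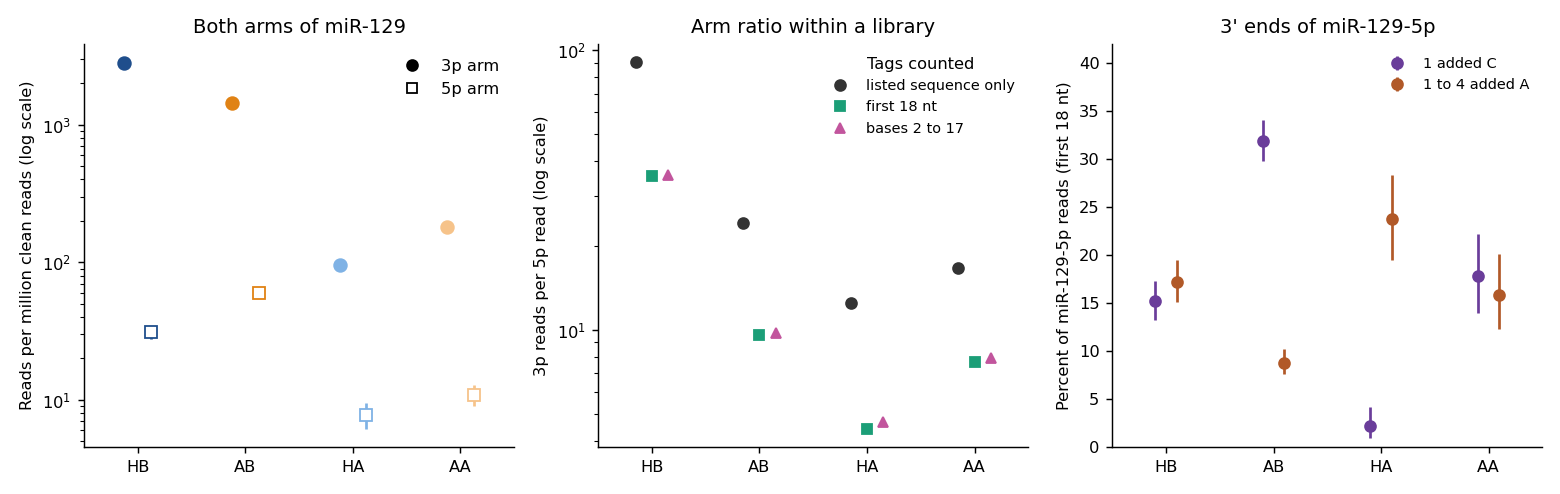
Left, both arms of miR-129 in each library in RPM on a log axis; middle, reads of the 3p arm per read of the 5p arm under 3 count rules on a log axis; right, share of miR-129-5p reads with 1 added C or with 1 to 4 added A at the 3′ end. Bars are exact 95% counting intervals; HB has the highest arm ratio (90.6), and the form with 1 added C falls from 31.9% in AB to 15.2% in HB and from 17.8% in AA to 2.13% in HA.

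miR-153 differed from miR-129 in that the higher arm depended on the count. The listed sequences gave 0.598 reads of the 3p arm per read of the 5p arm in HB and 0.860 in AB, so the 5p arm was the higher. Counted by the first 18 nt, the values were 3.46 and 2.79, so the 3p arm was the higher. HB minus AB was -0.52 (-1.09 to 0.04) by the listed sequences and 0.31 (-0.02 to 0.64) by the first 18 nt. A change in the arm ratio of miR-153 was not detectable at this depth.

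The count rules differ in the tag lengths that they admit, and the arms differed in the share of reads that had the listed sequence. Of the miR-129-3p tags that began with the listed first 18 nt, the listed 22 nt sequence made up 79.3% (HB) and 79.6% (AB) in brain and 66.6% (HA) and 75.1% (AA) in WAT. The form 1 base shorter, aAGCCCTTaccccaaaaagca, held 10.5%, 11.4%, 17.7% and 11.7%, the form 2 bases shorter, aAGCCCTTaccccaaaaagc, 3.76%, 3.31%, 4.70% and 5.36%, and the form with 1 added T, aAGCCCTTaccccaaaaagcatt, 1.58%, 1.86%, 2.83% and 3.79%. miR-129-3p was thus nearly uniform in length in brain, and the counting intervals of the share of the listed form overlapped between HB and AB (78.9 to 79.7% and 79.0 to 80.2%).

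The listed sequence was a minor form of miR-153-3p and miR-551-3p. For miR-153-3p the 23 nt listed sequence made up 10.97% in HB and 18.9% in AB, whereas the 20 nt form held 44.8% and 43.4%. The 19 nt form held 15.9% and 18.6%, and the 21 nt form 9.07% and 4.71%. For miR-551-3p the 21 nt listed sequence held 10.8% in HB and 9.17% in AB, against 44.2% and 45.4% for the 20 nt form. Its 22 nt form held 17.2% and 15.9%, and its 18 nt form 12.03% and 17.9%. The commonest forms of the pair were these.
miR-153-3p, 20 nt: tTGCATAGtcacaaaagtga
miR-551-3p, 20 nt: gCGACCCAtacttggtttca
With their first 18 nt, miR-153-3p reached 893 reads in HB and 488 in AB, with 0 in HA and 1 in AA, and miR-551-3p had 1172, 687, 0 and 7. The brain-only pattern of miR-551-3p therefore had an exception in active WAT, where 4 of the 7 reads were the 20 nt form. miR-153-5p was mostly of its listed 21 nt length, with 63.6% in HB and 61.1% in AB for the listed sequence. Its next forms were the listed sequence with 1 added C (6.59% and 13.7%), the form 1 base shorter (22 and 7 reads) and a 21 nt form that ends in A in place of the listed last base (6.59% and 6.29%), and 0 reads were found in WAT by any rule.

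**Figure D5:**
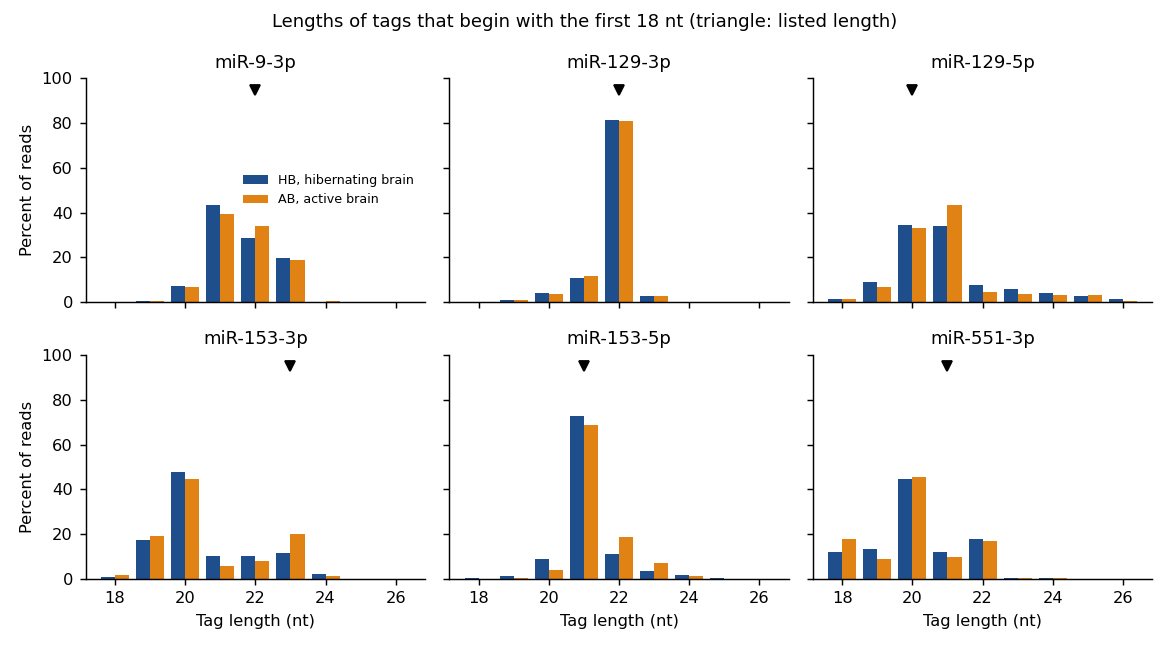
Length of the tags that begin with the first 18 nt of each arm in HB and AB, as percent of their reads; black triangles mark the listed length. miR-129-3p peaks at its listed 22 nt, whereas miR-153-3p and miR-551-3p peak at 20 nt, below their listed lengths.

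The 5′ end was fixed in 5 of the 6 arms and variable in miR-9-3p. Among tags that contained bases 2 to 17, at least 93.8% started at the listed base for the other 5 arms in each library where they were found. For miR-9-3p, 58.4% of 18635 reads in HB (95% exact interval 57.7 to 59.1%) and 55.5% of 20373 in AB (54.8 to 56.1%) started 1 base earlier, and 39.7% and 43.3% at the listed base. The commonest tag of each start is shown because the shift changes the seed.
miR-9-3p, listed start: tAAAGCTAgataaccgaaagt
miR-9-3p, 1 base earlier: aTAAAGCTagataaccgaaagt
The earlier start has the seed TAAAGCT, and the listed start AAAGCTA. The tag with the earlier start had 6918 reads in HB and 7046 in AB, with 6 in HA and 7 in AA, so it exceeded the listed 22 nt sequence in both brain libraries. Among the 7351 reads in HB and 8763 in AB of tags sharing its first 18 nt, the 21 nt form held 42.4% in HB and 38.6% in AB, the listed sequence 28.2% and 33.3%, the form with 1 added A 14.1% and 12.4%, and the form 2 bases shorter 6.71% and 6.44%.

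The 2 starts of miR-9-3p differed slightly between the states. The earlier start had 10877 reads in HB and 11298 in AB, a log2 ratio of -0.05, and the listed start 7404 and 8817, a log2 ratio of -0.24. These ratios use the TMM factors of the listed counts, under which all tags with bases 2 to 17 gave -0.12, whereas the TMM factors of that wider count gave -0.30. The log2 difference between the starts, which needs no scaling, was 0.20 for HB minus AB (0.14 to 0.26). In WAT, 15 of 32 reads in HA and 9 of 29 in AA had the earlier start. When every tag with bases 2 to 17 was counted, miR-9-3p reached 18635 reads in HB and 20373 in AB, against 44077 and 18629 for miR-129-3p, so miR-9-3p was then the more abundant of the pair in active brain.

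The 3′ end of miR-129-5p differed between the states. Its listed 20 nt sequence made up 31.2% (HB) and 31.5% (AB) of the reads in brain and 23.7% (HA) and 34.5% (AA) in WAT, and 2 forms with 1 added base followed.
miR-129-5p with 1 added C: cTTTTTGCggtctgggcttgc
miR-129-5p with 1 added A: cTTTTTGCggtctgggcttga
In brain the form with the added C had 183 reads in HB and 602 in AB, or 15.2% (13.2 to 17.3%) and 31.9% (29.8 to 34.1%). In WAT it had 8 in HA and 64 in AA, or 2.13% (0.925 to 4.16%) and 17.8% (14.0 to 22.2%). It was lower in the hibernating library of each tissue, and in AB it slightly exceeded the 594 reads of the listed form. Against the listed form, its log2 change was -1.06 for HB minus AB (-1.37 to -0.75) and -2.52 for HA minus AA (-3.86 to -1.36). Among the 113 listed miRNAs with 100 or more such reads in both brain libraries, the share with 1 added C was lower in HB for 39 and higher for 15, and the fall of miR-129-5p, of 16.7 percentage points, was the third largest. In WAT it was the second largest of 104, of which 33 were lower and 24 higher in HA. For miR-153-5p the share was 13.7% in AB (9.0 to 19.7%, 24 reads) and 6.59% in HB (3.88 to 10.3%, 17 reads), and the intervals overlapped.

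In brain, forms of miR-129-5p with added A had a higher share in HB. The form of miR-129-5p with 1 added A had 138 reads in HB and 126 in AB, with 47 in HA and 44 in AA. Its share was 11.4% in HB and 6.68% in AB, whereas the WAT shares were alike in size, at 12.5% in HA (9.36 to 16.3%) and 12.3% in AA (9.05 to 16.1%). With 1 to 4 added A the share in brain was 17.2% (15.1 to 19.5%) in HB and 8.80% (7.56 to 10.2%) in AB, and in WAT 23.7% (19.5 to 28.4%) in HA and 15.9% (12.3 to 20.1%) in AA. The intervals did not overlap in brain and overlapped in WAT. The rise in brain ranked 4th among the 113 miRNAs, of which 67 had a higher share in HB and 36 a lower one, so the direction was common among miRNAs. The form 1 base shorter held 8.86%, 6.57%, 9.07% and 8.36%. These 3′ forms were examined after their counts had been seen, and whether the added C or A is encoded in the bat hairpin was not tested.

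The miRNAs whose pattern over the 4 libraries was nearest to each arm were found by the distance between log2 levels plus a pseudocount of 1, after each miRNA's own mean had been subtracted, among 130 miRNAs with 100 or more reads. The levels were TMM-scaled reads per 1000000 reads of the listed miRNAs, a scale several times larger than RPM. Because the pseudocount weighs more on the smaller scale, the search was repeated with RPM, an alternative chosen after seeing the data. Nearest to miR-9-3p on the first scale were miR-219-5p (distance 1.05), miR-383-5p (1.25) and miR-1298-5p (1.69), of which the first 2 were also nearest with RPM (1.18 and 1.23). Nearest to miR-129-3p were miR-218a-5p (0.47), miR-138-3p (0.68) and miR-218b-5p (0.69), of which miR-218a-5p, whose family is known from motor neurons, was also first with RPM (0.74). For miR-129-5p they were miR-185-5p (0.69) and a pair of bat-specific miRNAs (0.68 and 0.69), of which miR-185-5p remained with RPM (0.65). For the arms with 0 reads in WAT, the scale and the pseudocount set the span between brain and WAT. miR-154-3p, with 117 and 115 reads in WAT, was among the 3 nearest to miR-153-3p (0.46) and miR-153-5p (0.43) on the first scale, but lay at 2.58 and 2.18 with RPM. Under both scales the 3 nearest included miR-153-5p and miR-551-3p for miR-153-3p, miR-124-5p and miR-153-3p for miR-153-5p, and miR-1298-3p for miR-551-3p. On the first scale the 3 nearest to miR-551-3p also included both arms of miR-153 (0.62 for miR-153-5p and 0.63 for miR-153-3p), which were not among its 3 nearest with RPM. With 4 libraries, a short distance describes these libraries only.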

How the data were processed

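Small RNA was sequenced on the Solexa platform from 4 pooled libraries, and the labels give a gel selection of 18 to 30 nt. After trimming adapters and filtering by quality, the authors deposited, per library, each distinct tag with its raw count, without normalization. Names and mature sequences were taken from the study's list of 196 miRNAs. The count of a miRNA was that of the identical tag, and alternatives counted every tag that began with its first 18 nt or contained its bases 2 to 17. The intervals of RPM, shares and arm ratios, at 95%, came from SciPy 1.17.1. Ratios between libraries were scaled by TMM (edgeR 4.0.16), with exact Clopper-Pearson intervals at 95% computed in R 4.3.3. A floor of 3 reads stood for a count of 0, and no ratio was given where both libraries had 3 reads or fewer. Other scalings were total clean reads, the summed listed miRNAs, DESeq2 1.42.0 size factors and TMM over the conserved miRNAs. The arm ratio was compared by an exact conditional odds ratio interval. Ratios of 1 or more in size were counted at 10 or more reads in the pair. Levels between miRNAs are read counts, which adapter ligation can set. The check on simulated data recovered 40 of 40 changed miRNAs, out of 115 (brain) and 111 (WAT). Its changes were well above the threshold, balanced in direction, set on miRNAs with higher counts and drawn with counting error alone. It therefore does not cover ratios near 1, low counts, unbalanced shifts or the spread between bats. Nearest patterns used log2 of TMM-scaled reads per 1000000 listed reads plus 1, and 3 were named per arm; length forms named were the listed sequence, the 3 most abundant others and the commonest tag with bases 2 to 17. The members and lists were chosen with earlier results of these data known. The other arms of miR-9 and miR-551 were not analysed here by name.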

Additional observations from a re-analysis of the deposited data

Results flagged for a closer look

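miR-129-3p differed in the direction of its state ratio between the tissues: its log2 ratio was 1.25 for HB over AB and -0.56 for HA over AA, a difference of 1.82, and each counting interval lay on its own side of 0. The difference was not tested, since each tissue and state is 1 library, and the WAT ratio was 0.21 with TMM over the conserved miRNAs alone.

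A signal was also found in tags outside the list that are complementary to miR-9-3p. Tags of at least 100 reads in all that held a run of 12 nt complementary to the commonest miR-9-3p tag were searched for, a search chosen after the counts had been seen, and 26 were found, with 24055 (HB) and 24419 (AB) reads in brain and 56 (HA) and 42 (AA) in WAT. The most abundant, tCTTTGGTtatctagctgtatga, had 12313 reads in all, with 6062 (HB) and 6232 (AB) in brain and 11 (HA) and 8 (AA) in WAT. It is not among the listed sequences, and it was not assigned to a hairpin here. Over the 26 tags the log2 ratio of HB over AB was -0.01, beside -0.12 for the miR-9-3p tags with bases 2 to 17 under the same scaling factors.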

How the results depend on the processing

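No paired analysis was possible because each comparison has 1 library on each side. Brain and WAT of a state came from the same bats, so each tissue ratio is within 1 set of bats, and a joint fit of tissue and state over the 4 libraries was not run. The number of arms with a log2 ratio of 1 or more for HB over AB was 2, and it was 0 with scaling by total clean reads, 1 with scaling by the summed listed miRNAs, 0 with the first 18 nt, 1 with bases 2 to 17, 1 where the whole interval had to lie beyond 1 and 0 with a threshold of 2. For HA over AA it was 1, and it was 0 with TMM over the conserved miRNAs alone, with the first 18 nt, with bases 2 to 17, with a minimum of 100 reads, with the whole interval beyond 1 and with a threshold of 2. The ratio of miR-9-3p for HA over AA reversed, from -1.54 to 0.080 with the first 18 nt and 0.28 with bases 2 to 17, on 3 and 11 listed reads. The miR-153 arm ratio, HB minus AB, moved from -0.52 to 0.31 with the first 18 nt and 0.32 with bases 2 to 17. In these, the causes were not tested. The tissue counts stayed within 1.5 times under every alternative, and of 40 alternative counts of arms 28 stayed so. The sizes of the tissue ratios varied more. Of 72 alternative brain over WAT ratios of single arms, 19 left their counting interval and 0 reversed. Over the 7 settings miR-9-3p ranged from 8.05 to 9.53 for AB over AA, and miR-129-5p from 1.32 to 2.07 for HB over HA. Of 23 listed shares recomputed without single reads or, for miR-129-3p, without changed bases, 19 stayed within their counting interval. With RPM, chosen after seeing the data, 1 or 2 of the 3 nearest patterns of each arm remained. At the depth of the listed reads, the intervals of miR-9-3p and miR-129-5p in WAT and of miR-153-3p in brain spanned 0. By the first 18 nt miR-153-3p in brain was at 0.61 (0.45 to 0.77) and miR-129-5p in WAT at 0.30 (0.09 to 0.52).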

Other observations

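The epithelial miRNAs differed between states in opposite directions in the 2 tissues. miR-200b-3p had 24 (HB) and 99 (AB) reads in brain and 269 (HA) and 28 (AA) in WAT, and miR-200a-3p had 100, 204, 30 and 0. In WAT, miR-378-3p, a miRNA of fat metabolism, had 11775 (HA) and 180178 (AA) reads, at a log2 ratio of -3.60, and miR-199-3p had 156158 and 458628, at -1.22. miR-7c-5p had 20988, 10140, 983 and 325 reads, so it was higher in the hibernating library of both tissues, at 1.06 and 1.93.

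Over all listed miRNAs, the median share of tags with 1 to 4 added A was 2.00% in HB and 1.08% in AB over 113 miRNAs, and 3.22% in HA and 1.31% in AA over 104, where 69 were higher and 26 lower in HA.

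Among 22 nt tags of miR-129-3p that differ from the listed sequence at 1 of positions 19 to 22, counted from the 5′ end, T22A was the most abundant, with 929 reads or 1.80% of the listed reads. The others were at most 0.0950%, and C20T had 38 reads or 0.0737%.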
